A study of Mus musculus with 30 samples.

Results

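The glutathione S-transferases (GSTs) and UDP-glucuronosyltransferases (UGTs) of mouse liver were taken as every gene whose own row on the array carried a single symbol of the form Gst with the class letter a, k, m, o, p, t or z and a digit, Mgst and a digit, or Ugt and a digit. The rule found 32 genes, 21 GSTs and 11 UGTs, of 22180 genes with such a row, and each of the 32 had 1 row. The GSTs comprised 2 of the alpha class, 6 of the mu class, 10 of the pi, theta, omega and kappa classes and 3 microsomal enzymes. The UGTs comprised 8 of the UGT2 family and 3 of the UGT3 and UGT8 families. A further 9 rows carried several symbols, among them those of the UGT1 genes, of Gsta1 and Gsta2 and of Gstz1, and these were read separately.

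GSTs join the tripeptide glutathione to electrophiles, including reactive aldehydes formed from oxidised lipids. UGTs join a sugar, in most members glucuronic acid, to bilirubin, bile acids, steroids and drugs, so that both families make their substrates water soluble and ready for export into bile or urine. Their genes in liver are known targets of the oxidative stress factor NRF2, of the nuclear receptors CAR and PXR, and in part of the sex-dependent pattern of growth hormone release.

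Livers of male C57Bl/6NCr mice were measured on 30 arrays in 8 groups, 1 animal to an array, with a piece of whole liver as the source. Dams were fed freely (normal nutrition, NN) or received 40% fewer calories late in pregnancy (undernutrition, UN), and the offspring were studied in 3 separate cohorts. The first cohort was 9 weeks old on regular chow, before any high-fat diet (HFD), with 3 NN and 3 UN animals, and the second was 17 weeks old after 8 weeks of HFD, with 4 NN and 4 UN animals. The third was 22 weeks old after 13 weeks of HFD and held 4 groups of 4 animals, NN-Veh and UN-Veh given vehicle by gavage and NN-TU and UN-TU given tauroursodeoxycholic acid (TUDCA), a taurine-conjugated bile acid, at 0.5 g/kg per day over the last 5 weeks. All values below are the deposited log2 signals, so that a difference of 1 is a 2-fold difference, and arrays are named by their group and their number from 1 to 30. Because a whole piece of liver was measured, fewer cells of a type and less RNA per cell cannot be told apart.

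One array stood apart. UN 17 wk 14 correlated with the other arrays at a median of 0.837 over all probe sets, against 0.958 to 0.985 for the rest, and the median signal of the 32 genes was 6.56 on it and between 7.71 and 8.74 on the others. The value of 0.958 was that of UN 17 wk 13, and the next lowest was 0.977. Its summed signal of 5 measured hepatocyte markers was 12.06, against up to 14.31 in its group, and 26 of the 32 genes lay below the group's mean on it. Comparisons of the UN 17 wk group are therefore given with and without it. NN-TU 21 and NN-TU 22 were also low, with 27 and 26 of the 32 genes below the group's mean and a median deviation of -0.13 on each. That mean includes NN-TU 19, which was high, with 4 of the 32 genes below it and a median deviation of 0.19. Among the NN-Veh arrays NN-Veh 16 had 24 of the 32 genes below its group's mean, at a median deviation of -0.09. The hepatocyte markers were high on the remaining arrays, with summed signals of 14.01 to 14.40 outside the UN 17 wk group.

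**Figure D1:**
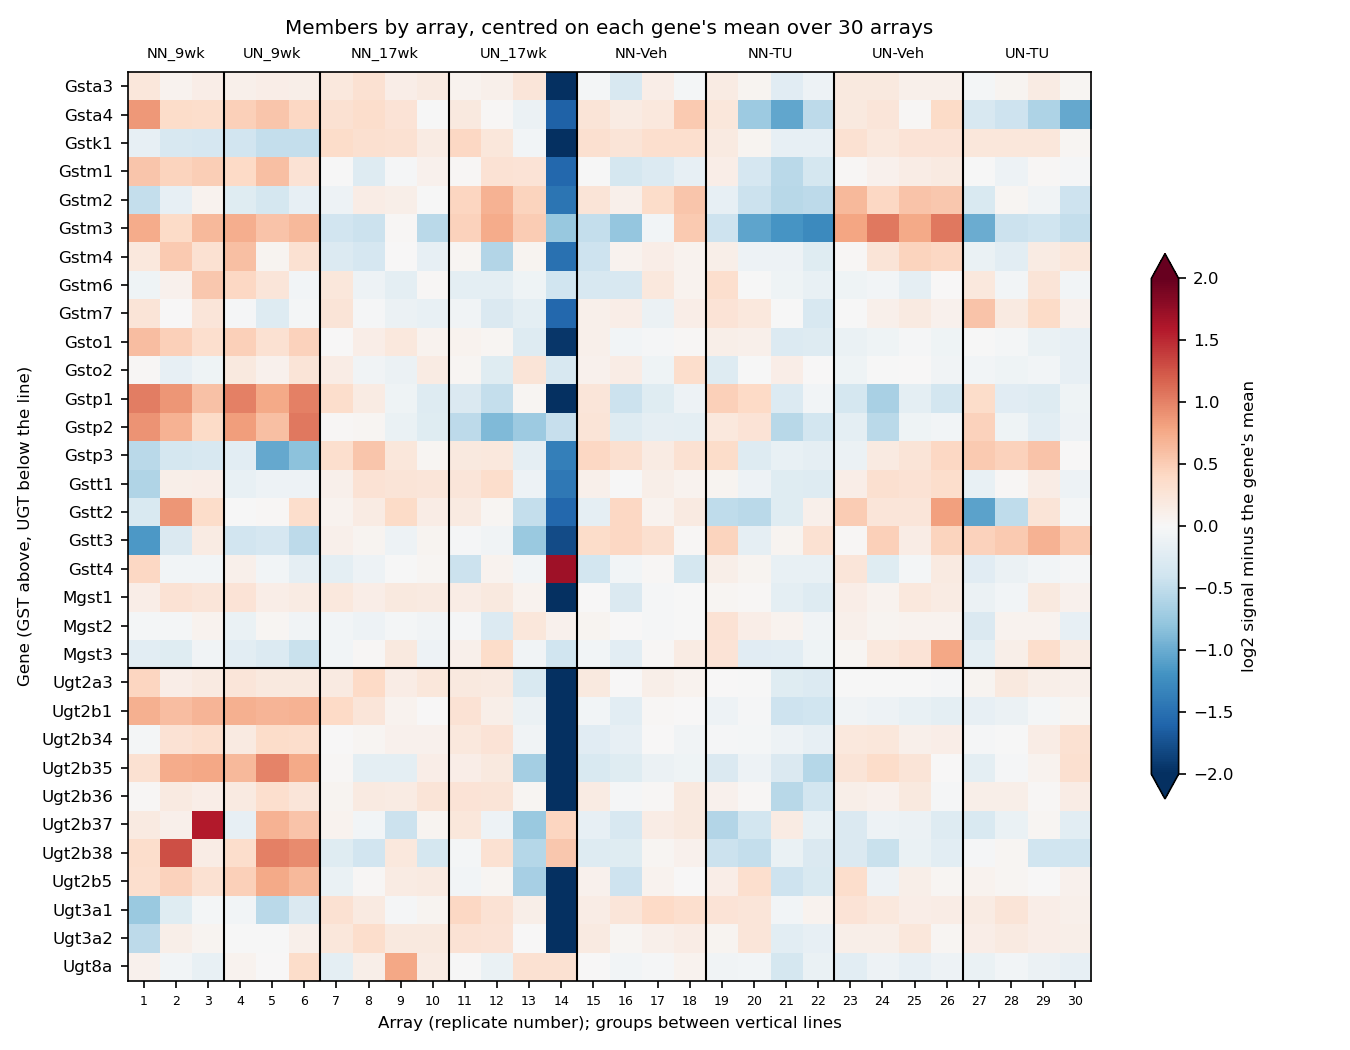
Signals of the 32 genes (rows, GSTs above the line and UGTs below) on the 30 arrays (columns, ordered by group), as the log2 difference from each gene's mean over the arrays, with colours ending at 2 in either direction. The column of UN 17 wk 14 is low in most rows, the Gstp1, Gstp2, Ugt2b1 and Ugt2b35 rows are high in the 9-week columns, and Gstm3 is high at 9 weeks and in UN-Veh.

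At 9 weeks, before the HFD, no member differed past the threshold between the offspring of undernourished and normally fed dams. Of the 32 genes 0 passed an adjusted p under 0.05 (limma, Benjamini-Hochberg over all 25341 probe sets named by a gene), beside 0% of all probe sets. Gsto2, an omega-class enzyme, was the only member at an unadjusted p under 0.05, beside 1.75% of all probe sets that were higher in UN at that level. Its UN minus NN difference was 0.26 (adjusted p = 1, limma). The median difference of the 32 genes was -0.01.

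At 22 weeks, after 13 weeks of HFD with vehicle, the mu-class gene Gstm3 was higher in UN than in NN offspring. It was the one member of 32 past the threshold for a higher signal, beside 0.312% of all probe sets. The 6 measured mu-class genes, which encode cytosolic enzymes for a wide range of electrophiles, lie together on chromosome 3. Gstm3 read 7.74, 7.45, 8.17 and 8.74 in NN-Veh and 9.01, 9.27, 8.97 and 9.27 in UN-Veh. The groups did not overlap, and NN-Veh was the more scattered of them. The difference was 1.10 (SE 0.22, 95% interval 0.65 to 1.56), 2.15-fold higher in UN-Veh, with an adjusted p of 0.0285 in limma. Group means were 8.02 in NN-Veh and 9.13 in UN-Veh, against 8.81 in NN and 8.86 in UN at 9 weeks, so NN-Veh lay further from its 9-week group. The call rested on few animals: it was lost without NN-Veh 15, 16 or 17 or UN-Veh 24, 25 or 26, with adjusted p values up to 0.129 and differences between 0.91 and 1.34 over the 8 arrays left out in turn. It was also lost with all 30 arrays in 1 fit (adjusted p = 0.292, limma).

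No other member passed the threshold, and of the 32 differences 17 were above 0 and 15 below, beside 55.1% and 44.9% of all probe sets. At an unadjusted p under 0.05, 9 of the 32 genes (28.1%) were higher in UN-Veh, beside 5.89% of all probe sets, and 0 were lower, beside 3.42%. They were Gstm1 (0.31), Gstm3 and Gstm4 (0.32) of the mu class, Gsta3 (0.21), Gstt1 (0.20), the microsomal Mgst1 (0.22) and Mgst3 (0.34), and the UGTs Ugt2b34 (0.28) and Ugt2b35 (0.41). Apart from Gstm3 their adjusted p values ran from 0.142 to 0.514. All 6 mu-class genes had a difference above 0, with a class median of 0.27, beside a median of 0.02 over all probe sets. A row shared by Gstm5 and another gene, not counted among them, was higher by 0.33 (adjusted p = 0.205, limma). Signals did not overlap between the groups with UN-Veh higher in 7 genes (21.9%, beside 4.72% of all probe sets) and with UN-Veh lower in 2 (beside 2.88%). Ugt2b35 read 8.51, 8.57, 8.70 and 8.73 in NN-Veh and 9.08, 9.18, 9.08 and 8.82 in UN-Veh, so every UN-Veh animal was above every NN-Veh animal, with an adjusted p short of the threshold.

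Markers of other cells moved in the same comparison. The 6 stellate cell and fibroblast markers all had differences above 0 (median 0.31), with summed signals of 10.31 to 10.49 in NN-Veh and 10.47 to 10.71 in UN-Veh. Of 6 Kupffer cell markers 5 were below 0 (median -0.34), with summed signals of 10.26 to 10.76 in NN-Veh and 9.92 to 10.32 in UN-Veh. Their part in the Gstm3 result was not tested.

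**Figure D2:**
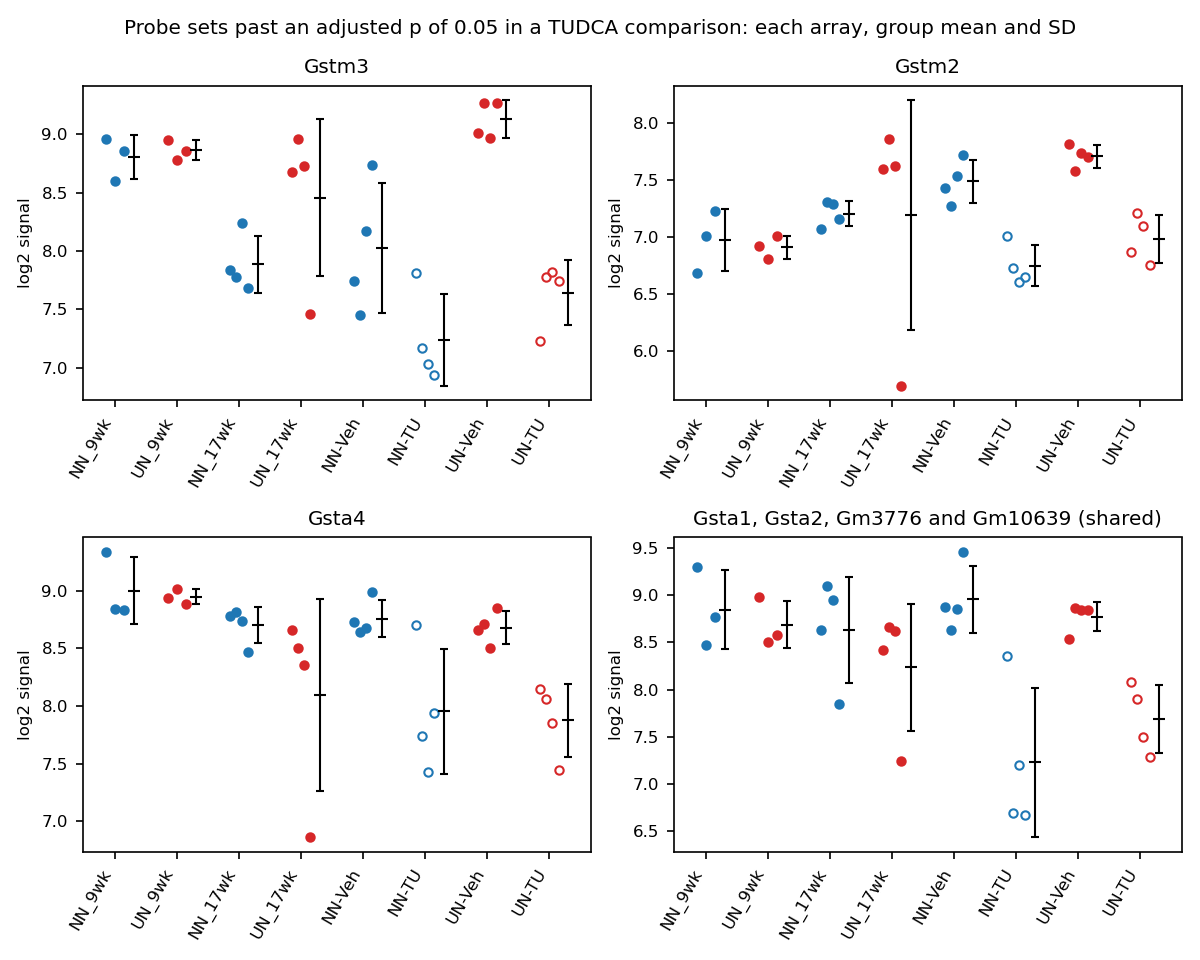
Log2 signals (vertical axis) of Gstm3, Gstm2, Gsta4 and the row shared by Gsta1, Gsta2, Gm3776 and Gm10639 in the 8 groups (horizontal axis), 1 point per animal, blue for NN and red for UN, open for TUDCA, with black bars for the mean ± SD of 3 animals at 9 weeks and 4 at later ages. Gstm3 lies between 8.97 and 9.27 in UN-Veh and between 7.23 and 7.82 in UN-TU.

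With TUDCA in UN offspring, Gstm3 and its neighbour Gstm2 fell, 2 of 32 genes beside 0.268% of all probe sets. Gstm3 read 7.23, 7.78, 7.82 and 7.74 in UN-TU, below every UN-Veh animal. Its difference from UN-Veh was -1.49 (SE 0.22, 2.80-fold lower, adjusted p = 0.00275, limma). Gstm2 read 7.82, 7.58, 7.74 and 7.70 in UN-Veh and 6.87, 7.21, 7.10 and 6.76 in UN-TU, again with no overlap. Its difference was -0.73 (SE 0.12, 1.65-fold lower, adjusted p = 0.00675, limma). Both calls held when any one of the 8 arrays was left out, with differences of -1.55 to -1.35 for Gstm3 and -0.80 to -0.65 for Gstm2. With all 30 arrays in 1 fit Gstm3 passed (adjusted p = 0.0364) and Gstm2 did not (adjusted p = 1, limma).

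With TUDCA in NN offspring, Gstm2 fell, and so did the alpha-class gene Gsta4, whose enzyme conjugates hydroxynonenal, an aldehyde of lipid peroxidation. These were 2 of 32 genes, beside 1.06% of all probe sets. Gstm2 read 7.43, 7.27, 7.54 and 7.72 in NN-Veh and 7.01, 6.73, 6.61 and 6.65 in NN-TU, with no overlap. It fell by 0.74 (SE 0.12, adjusted p = 0.00337, limma), and the call held without any single array. Without both NN-TU 21 and NN-TU 22 the difference was -0.62 with an adjusted p of 0.103 in limma, and the call was also lost with all 30 arrays in 1 fit (adjusted p = 0.658, limma). Gsta4 read 8.73, 8.64, 8.68 and 8.99 in NN-Veh and 8.70, 7.74, 7.43 and 7.94 in NN-TU, so that NN-TU 19 lay among the vehicle animals and the other three below them. It fell by 0.81 (SE 0.19, adjusted p = 0.0413, limma). This call was lost without NN-Veh 15, 16, 17 or 18 or NN-TU 20, 21 or 22, and without NN-TU 19 the difference was -1.06 with an adjusted p of 0.000898.

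Gsta4 in UN offspring and Gstm3 in NN offspring missed the threshold. Gsta4 read 8.66, 8.71, 8.50 and 8.85 in UN-Veh and 8.15, 8.06, 7.85 and 7.44 in UN-TU, without overlap, at a difference of -0.81 (SE 0.19, adjusted p = 0.0755, limma). Gstm3 in NN-TU read 7.81, 7.17, 7.03 and 6.94 and overlapped NN-Veh, at a difference of -0.78 (SE 0.22, adjusted p = 0.0788, limma). Whether TUDCA acted differently in the 2 arms was tested as an interaction, and 0 of the 32 genes passed, beside 0% of all probe sets. For Gstm3 the TUDCA difference in UN minus that in NN was -0.70 (SE 0.31, adjusted p = 0.366, limma), and it was the 1 member below 0 at an unadjusted p under 0.05, beside 3.93% of all probe sets. Gstp3 (0.57, adjusted p = 0.267), Gstt3 (0.40) and Ugt2a3 (0.35, adjusted p = 0.252, limma) were the 3 members above 0 at that level, beside 7.95%.

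**Figure D3:**
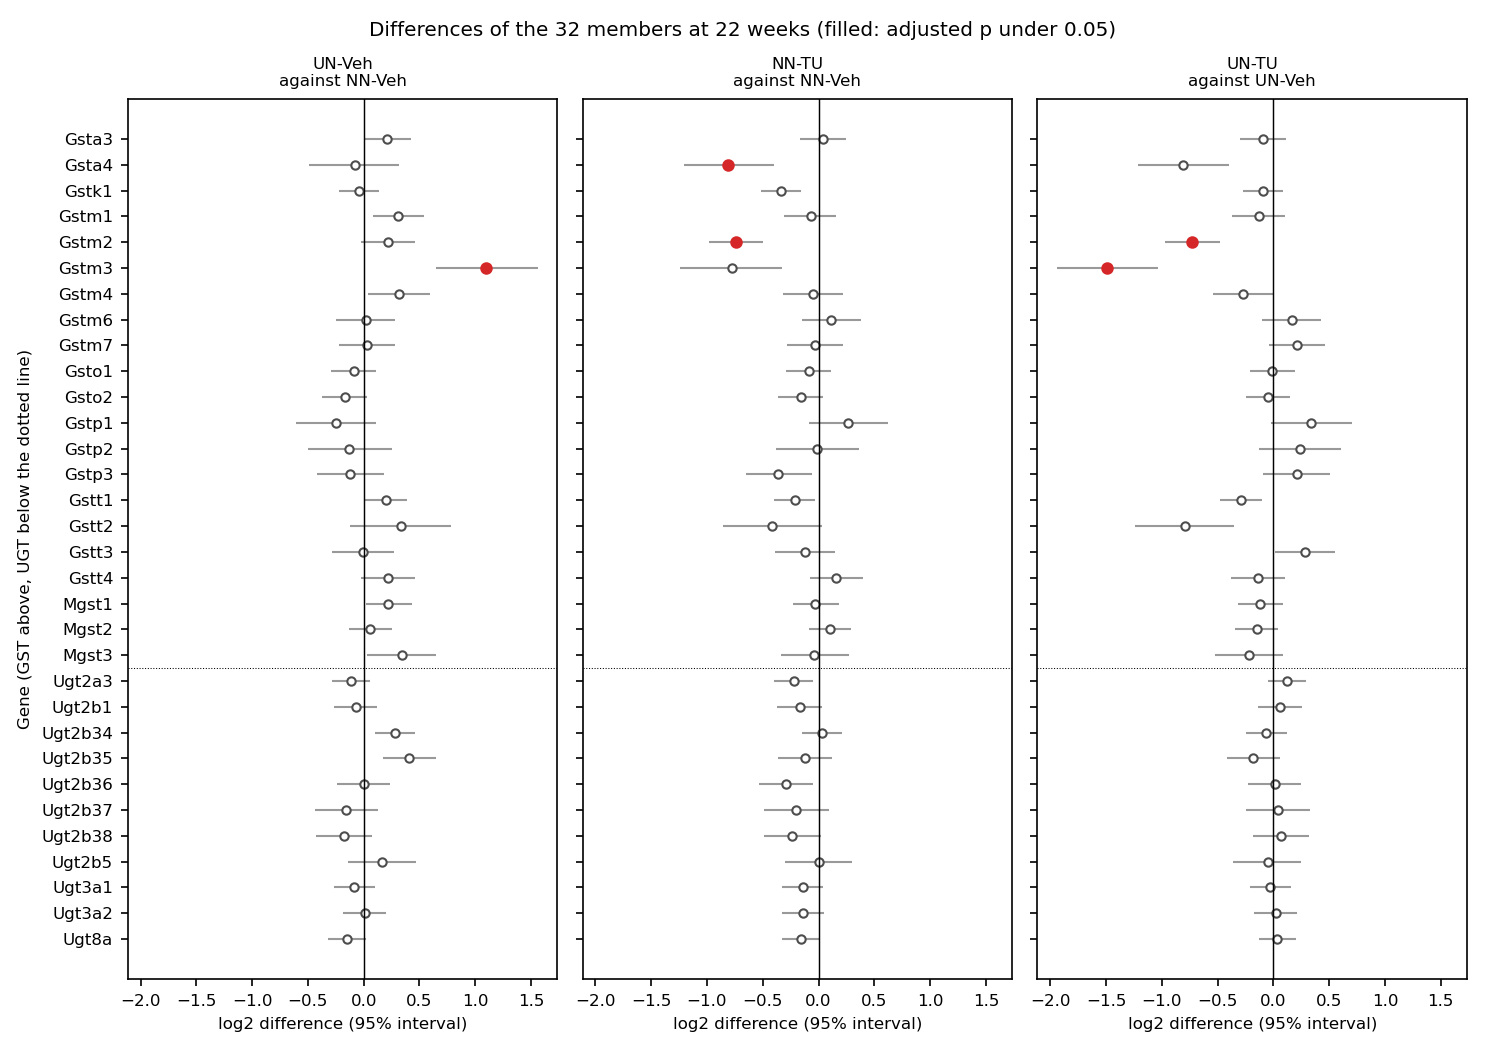
Log2 differences of the 32 genes (rows) in the 22-week cohort for UN-Veh minus NN-Veh, NN-TU minus NN-Veh and UN-TU minus UN-Veh (panels), with bars for the 95% interval and filled points for an adjusted p under 0.05. Gstm3 is filled at 1.10 and at -1.49, Gstm2 at -0.74 and -0.73, and Gsta4 at -0.81 in NN only. The comparisons share the vehicle arrays.

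The other members gave these counts with TUDCA. In UN-TU against UN-Veh, 5 genes (15.6%) were lower at an unadjusted p under 0.05, beside 5.64% of all probe sets, and these were Gstm3, Gstm2, Gsta4 and the theta-class genes Gstt2 (-0.79, adjusted p = 0.122) and Gstt1 (-0.29, adjusted p = 0.195). Gstt3, also of the theta class, was the 1 gene higher at that level, beside 4.96%, at 0.28 (adjusted p = 0.457, limma). No UGT reached an unadjusted p under 0.05, and the 11 UGT differences lay between -0.18 and 0.12. In NN-TU against NN-Veh, 8 genes (25%) were lower at an unadjusted p under 0.05, beside 11.5% of all probe sets, and 26 of 32 differences were below 0, beside 62.2% of all probe sets. That count moved with NN-TU 21 and NN-TU 22: without both arrays 15 of 32 differences were below 0, and with quantile normalization repeated 21 of 32 were. The shares of all probe sets below 0 in these settings are not given, so the lean relative to them cannot be read.

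Between the TUDCA-treated groups 0 of 32 genes passed the threshold, beside 0.474% of all probe sets. At an unadjusted p under 0.05, 9 genes (28.1%) were higher in UN-TU, beside 13.3% of all probe sets, and 25 of 32 differences were above 0, beside 64.3%. Here too the count shrank, to 19 of 32 above 0, without NN-TU 21 and NN-TU 22, and without NN-TU 19 alone 2 genes passed the threshold. The shares of all probe sets in these settings are not given.

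The promoters of Gstm2 and Gstm3 are shown because these neighbouring genes both fell with TUDCA in the UN offspring. Each window holds the 250 bases before the start of the gene in RefSeq on GRCm38.p6, read 5′ to 3′ on the strand of the gene, and each motif named here and below was searched on both strands.
Gstm2, chr3:107986421-107986670, minus strand: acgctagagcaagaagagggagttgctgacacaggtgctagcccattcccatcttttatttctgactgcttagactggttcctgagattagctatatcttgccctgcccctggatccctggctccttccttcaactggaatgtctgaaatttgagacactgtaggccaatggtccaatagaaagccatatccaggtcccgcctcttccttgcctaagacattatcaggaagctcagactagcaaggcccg
Gstm3, chr3:107969175-107969424, minus strand: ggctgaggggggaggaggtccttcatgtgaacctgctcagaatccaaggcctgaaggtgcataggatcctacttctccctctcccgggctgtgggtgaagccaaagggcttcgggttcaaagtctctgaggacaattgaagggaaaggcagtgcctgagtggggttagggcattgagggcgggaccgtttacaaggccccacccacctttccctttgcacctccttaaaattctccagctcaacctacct
The windows were 46.1% identical in a global alignment. The antioxidant response element core TGACNNNGC, the sequence that NRF2 binds with a small MAF protein, was in neither. It was in 10.2% of 32851 such promoter windows of the mouse and in those of 3 of the 29 member genes with a window, namely Gsta3, Gstm7 and Mgst1.

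The comparison of 22-week vehicle animals on HFD with 9-week animals on chow called more of the 32 genes than any other comparison made here. In NN offspring 11 of 32 genes (34.4%) passed an adjusted p under 0.05, beside 3.43% of all probe sets, 5 higher (beside 1.96%) and 6 lower (beside 1.47%). In UN offspring 13 of 32 (40.6%) passed, beside 6.77% of all probe sets, 6 higher (beside 4.7%) and 7 lower (beside 2.07%). Age, weeks of HFD, gavage with vehicle and cohort all differ between these groups and cannot be told apart. In both arms 10 genes passed with the same direction, which was 90.9% of the 11 and 76.9% of the 13. The groups compared in NN and in UN share no array, but both tests take their spread from the same cohorts. A difference between these cohorts would also appear in both arms, so the shared calls are no independent repeat. With all 30 arrays sharing 1 estimate of the spread, 0 genes passed in NN and 2 in UN. The share of all probe sets that passed in that fit is not given.

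The pi-class genes Gstp1 and Gstp2, whose products are highly similar enzymes and which lie beside Gstp3 on chromosome 19, fell in both arms. Gstp1 read 11.53, 11.39 and 11.09 in NN and 11.51, 11.26 and 11.52 in UN at 9 weeks. At 22 weeks it read 10.75, 10.08, 10.27 and 10.41 in NN-Veh and 10.16, 9.86, 10.32 and 10.15 in UN-Veh. Every vehicle animal was below every 9-week animal, with differences of -0.96 in NN (adjusted p = 0.00309, limma) and -1.31 in UN (adjusted p = 5.5e-05, limma). Gstp2 went from 10.19, 9.99 and 9.68 to 9.55, 9.03, 9.11 and 9.10 in NN and from 10.13, 9.90 and 10.35 to 9.09, 8.76, 9.21 and 9.23 in UN. The groups again did not overlap, and the differences were -0.76 (adjusted p = 0.028) and -1.06 (adjusted p = 0.00112, limma). The NN call for Gstp2 was lost without NN 9 wk 1 or 2 or NN-Veh 16, 17 or 18. A row that carried the symbols of both Gstp1 and Gstp2 fell as well, by 0.78 in NN (adjusted p = 0.00795) and by 1.11 in UN (adjusted p = 0.000134, limma).

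Gstp3, the third gene of the cluster, rose in both arms. It read 7.25, 7.44 and 7.47 in NN and 7.57, 6.76 and 6.97 in UN at 9 weeks, against 8.20, 8.10, 7.95 and 8.09 in NN-Veh and 7.66, 7.96, 8.04 and 8.20 in UN-Veh. The vehicle animals were all above their 9-week group, at differences of 0.70 (adjusted p = 0.0224) and 0.86 (adjusted p = 0.00257, limma). The NN call was lost without NN 9 wk 1 or NN-Veh 15, 16 or 18. The 3 promoters are shown because the genes are neighbours and moved in opposite directions, and the capitals mark the AP-1 site TGACTCA, which reads TGAGTCA on the strand shown.
Gstp1, chr19:4037913-4038162, minus strand: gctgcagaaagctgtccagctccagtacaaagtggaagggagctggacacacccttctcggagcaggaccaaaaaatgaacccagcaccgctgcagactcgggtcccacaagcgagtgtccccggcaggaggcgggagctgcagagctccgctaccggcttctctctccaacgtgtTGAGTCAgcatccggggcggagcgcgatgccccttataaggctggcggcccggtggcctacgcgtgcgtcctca
Gstp2, chr19:4042222-4042471, minus strand: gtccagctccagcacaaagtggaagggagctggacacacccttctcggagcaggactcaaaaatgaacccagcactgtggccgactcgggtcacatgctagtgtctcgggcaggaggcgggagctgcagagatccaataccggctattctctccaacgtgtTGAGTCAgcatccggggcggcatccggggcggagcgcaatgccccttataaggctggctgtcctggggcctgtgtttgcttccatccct
Gstp3, chr19:4059448-4059697, minus strand: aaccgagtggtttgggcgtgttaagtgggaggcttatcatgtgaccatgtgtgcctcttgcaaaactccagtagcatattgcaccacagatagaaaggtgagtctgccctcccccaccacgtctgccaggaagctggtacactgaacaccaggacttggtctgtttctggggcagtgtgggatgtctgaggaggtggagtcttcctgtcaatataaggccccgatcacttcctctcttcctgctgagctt
Gstp1 and Gstp2 were 78.1% identical over these windows, and Gstp3 was 50% identical to Gstp1 and 46.5% to Gstp2. The Gstp3 window begins at 4059448 and the gene is listed up to 4059605, so part of the window lies inside the gene. The windows of Gstp1 and Gstp2 begin just past the gene. The Gstp3 values therefore compare different positions and do not show that its promoter differs. The AP-1 site begins 74 bases before the start of Gstp1 and 89 before that of Gstp2, and the Gstp3 window does not hold it. It was in 4.46% of all promoter windows and in those of 4 of the 29 member genes, with Mgst2 and Ugt2b37 as the other two.

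**Figure D4:**
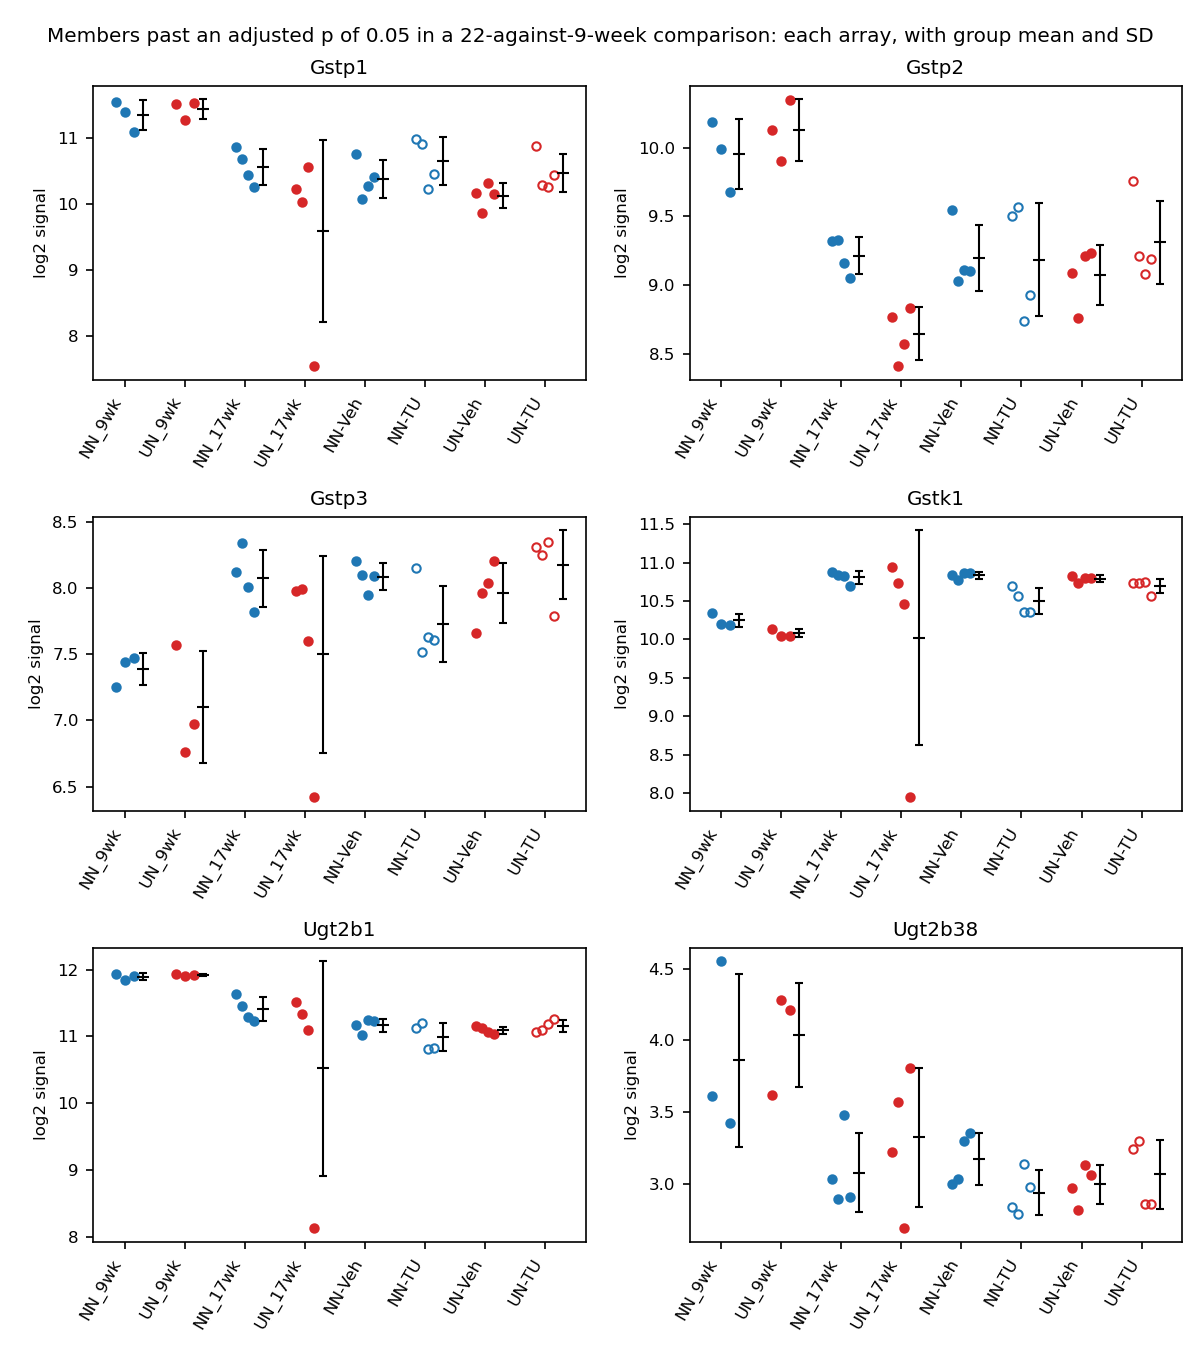
Log2 signals (vertical axis) of members that passed in the comparison of 22 with 9 weeks, 1 point per animal, in the 8 groups (horizontal axis; blue NN, red UN, open points TUDCA), with black bars for the mean ± SD of 3 animals at 9 weeks and 4 at later ages. Gstp1, Gstp2 and Ugt2b1 are lower in the vehicle groups than at 9 weeks, Gstk1 and Gstp3 are higher, Ugt2b38 is low throughout, and the isolated low points at 17 weeks are UN 17 wk 14.

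Gstk1, the kappa-class enzyme of mitochondria and peroxisomes, rose. It read 10.35, 10.20 and 10.19 in NN and 10.14, 10.05 and 10.05 in UN at 9 weeks, and between 10.73 and 10.86 in the 8 vehicle animals, with no overlap. The differences were 0.58 (adjusted p = 0.000527) in NN and 0.71 (adjusted p = 2e-05, limma) in UN. Gstm2 also rose, by 0.51 (adjusted p = 0.0294) and by 0.80 (adjusted p = 0.000419, limma), from 6.69 to 7.23 at 9 weeks to 7.27 to 7.82 with vehicle. Its NN call was lost without NN 9 wk 1 or 2 or NN-Veh 17 or 18, whereas no single array ended the UN call.

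Of the other GSTs, Gsto1, which reduces dehydroascorbate among other substrates, fell by 0.46 in NN (adjusted p = 0.0108) and by 0.49 in UN (adjusted p = 0.00363, limma). Gstt3 rose by 0.70 (adjusted p = 0.0492) and 0.69 (adjusted p = 0.0346, limma), with an NN difference of 0.34 without NN 9 wk 1. The Gstt3 calls were lost without 6 of 7 arrays in NN, all but NN 9 wk 3, and without UN 9 wk 4, 5 or 6 or UN-Veh 24 or 26 in UN. Gstm1 passed in NN alone, where it fell by 0.70 (adjusted p = 0.00123, limma), and Mgst3 in UN alone, where it rose by 0.63 (adjusted p = 0.0113, limma). The Gsto1 call in NN was lost without NN 9 wk 1 and the Mgst3 call without UN 9 wk 6.

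All 8 measured UGT2 genes, which include the main glucuronidating enzymes for steroids and bile acids in liver, had differences below 0 in both arms. Of all probe sets 49.2% were below 0 in NN and 45.3% in UN. The UGT2 median was -0.54 in each arm, with a range of -0.80 to -0.02 in NN and -1.04 to -0.13 in UN. Ugt2b37 and Ugt2b38 were dim, with means of 2.94 and 3.27 over the 30 arrays, and probes can read near-identical copies together. With quantile normalization repeated 7 of 8 were below 0 in NN. Ugt2b1 read 11.94, 11.84 and 11.90 in NN and 11.94, 11.91 and 11.92 in UN at 9 weeks, and lay between 11.02 and 11.24 in the 8 vehicle animals. That gap is many times the spread within a group, and the differences were -0.73 (SD of the NN groups 0.05 and 0.10; adjusted p = 9.9e-05) and -0.83 (adjusted p = 7e-06, limma). Ugt2b35 fell by 0.80 in NN (adjusted p = 0.00123) and by 0.58 in UN (adjusted p = 0.0086, limma), the latter not without UN 9 wk 5. Ugt2b5 and Ugt2b38 passed in UN alone. Ugt2b5 read 10.58, 10.86 and 10.76 at 9 weeks and 10.46, 10.01, 10.23 and 10.15 in UN-Veh, a fall of 0.52 (adjusted p = 0.034, limma) that was lost without UN 9 wk 5 or 6 or UN-Veh 24, 25 or 26. Ugt2b38 read 3.62, 4.28 and 4.21 at 9 weeks and 2.97, 2.82, 3.13 and 3.06 in UN-Veh, a fall of 1.04 (adjusted p = 0.00155, limma) at signals near or below the arrays' medians of 4.11 to 4.25.

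The promoters of Ugt2b5 and Ugt2b38, both on chromosome 5 in the UGT2 cluster, are shown because they were close to each other in sequence, with the nuclear receptor half-site AGGTCA in capitals.
Ugt2b5, chr5:87140341-87140590, minus strand: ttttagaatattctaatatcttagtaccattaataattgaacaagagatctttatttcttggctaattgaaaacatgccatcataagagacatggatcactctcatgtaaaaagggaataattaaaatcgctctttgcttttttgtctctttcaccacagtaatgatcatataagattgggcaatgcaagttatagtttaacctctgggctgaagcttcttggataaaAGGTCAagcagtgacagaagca
Ugt2b38, chr5:87424204-87424453, minus strand: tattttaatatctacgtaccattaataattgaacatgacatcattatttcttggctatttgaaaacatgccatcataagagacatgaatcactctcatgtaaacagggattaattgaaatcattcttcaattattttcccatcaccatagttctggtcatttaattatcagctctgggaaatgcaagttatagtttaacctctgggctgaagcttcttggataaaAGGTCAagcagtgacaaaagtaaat
They were 81.5% identical, and the half-site began 22 bases before the start of Ugt2b5 and 25 before that of Ugt2b38. It was in 14% of all promoter windows and in those of 6 of the 29 member genes, namely Gstk1, Ugt2b35, Ugt2b36, Ugt2b37, Ugt2b38 and Ugt2b5. A match of this kind describes the letters and is no evidence of binding.

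Ugt3a1, of the UGT3 family, which uses other sugars than glucuronic acid, rose in both arms. It read 8.78, 9.28 and 9.49 in NN and 9.46, 8.99 and 9.23 in UN at 9 weeks and lay between 9.66 and 9.92 in the vehicle animals, all of them above every 9-week animal. The differences were 0.62 (adjusted p = 0.00745) and 0.49 (adjusted p = 0.0219, limma). The NN call was lost without NN 9 wk 1 and the UN call without UN 9 wk 5 or 6 or UN-Veh 23 or 24. Ugt3a2, the other measured gene of the family, did not pass, with differences of 0.23 (adjusted p = 0.374) and 0.09 (adjusted p = 0.769, limma).

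**Figure D5:**
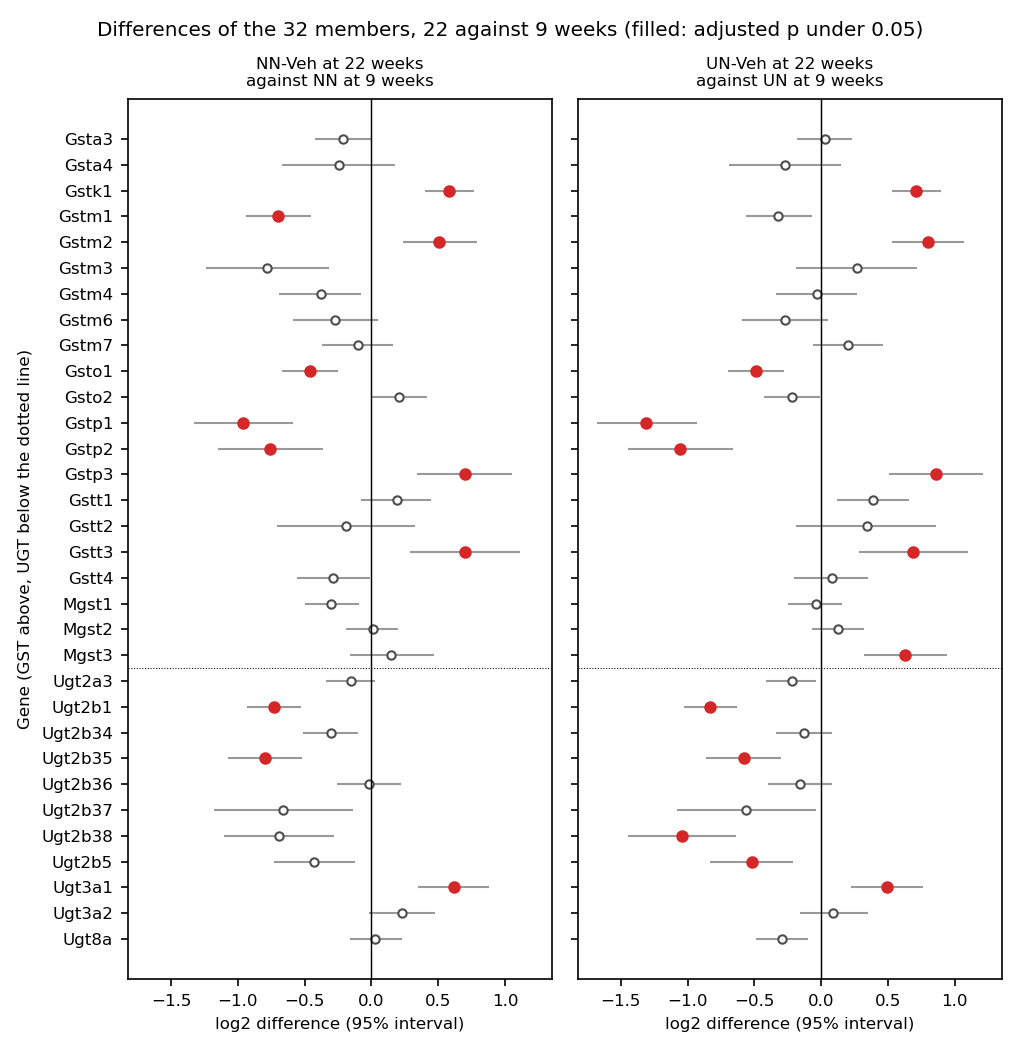
Log2 differences of the 32 genes (rows) between 22 weeks on HFD with vehicle and 9 weeks on chow, in NN and in UN (panels), with bars for the 95% interval and filled points for an adjusted p under 0.05. Gstp1, Gstp2 and Ugt2b1 are filled below 0 and Gstk1, Gstm2 and Gstp3 above 0 in both panels.

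The age and diet differences of NN and UN were then compared with each other, a test added after the values had been seen. Of the 32 genes 0 passed, beside 0 of 25341 probe sets. At an unadjusted p under 0.05 there were 5 members (15.6%), beside 7.19% of all probe sets, and Gstm3 had the lowest p, with a UN change minus NN change of 1.05 (SE 0.31, adjusted p = 0.486, limma). It had gone from 8.96, 8.60 and 8.86 at 9 weeks to 8.02 ± 0.56 (SD, n = 4) in NN-Veh, and from 8.95, 8.78 and 8.86 to 9.13 ± 0.16 (SD, n = 4) in UN-Veh. The genes that passed in one arm alone are therefore not shown to differ between the arms.

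At 17 weeks, after 8 weeks of HFD, fewer members passed. In NN against 9 weeks 0 of 32 passed, beside 0.0158% of all probe sets, and 3 (9.38%), Gstm3, Gstp2 and Ugt2b38, were lower at an unadjusted p under 0.05, beside 1.37%. This fit took its spread from whole cohorts, and so from the low array UN 17 wk 14 as well. Gstk1 lay wholly above its 9-week signals at a difference of 0.56, with an SE of 0.52. With only the groups compared in the fit, which leaves that array out, 1 of 32 passed. The count of 0 therefore does not show smaller changes at 17 weeks. Signals of 11 genes (34.4%) lay wholly below those at 9 weeks, beside 4.81% of all probe sets, and those of 4 genes (12.5%) wholly above, beside 5.17%. Gstp2 read 9.32, 9.33, 9.16 and 9.05, a difference of -0.74 (adjusted p = 0.513, limma), and Gstm3 read 7.84, 7.78, 8.24 and 7.68, a difference of -0.92 (adjusted p = 1, limma).

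In UN against 9 weeks Gstp2 fell, 1 of 32 genes beside 0.0908% of all probe sets. It read 8.77, 8.41, 8.57 and 8.83 at 17 weeks, with UN 17 wk 14 as its highest value, and the difference was -1.48 (SE 0.16, 2.80-fold lower, adjusted p = 0.00134, limma). With quantile normalization repeated it was -0.96 and did not pass (adjusted p = 0.395), nor did it with only these groups in the fit (adjusted p = 0.0962, limma). By the rule the study used, which asks for at least a 2-fold change on the linear scale with an unadjusted p under 0.05, 5 of 32 genes (15.6%) were lower, beside 1.07% of all probe sets: Gstp2, Gstp1 (-1.84), Ugt2b1 (-1.40), Ugt2b35 (-1.57) and Ugt2b5 (-1.45). Without UN 17 wk 14 these 4 further differences shrank to -1.16, -0.60, -0.92 and -0.85 and 2 of the 32 genes met those thresholds. The adjusted test then called 7 of 32, beside 1.03% of all probe sets, with Gstk1 (0.64, adjusted p = 0.0216) and Gstm2 (0.78, adjusted p = 0.0142, limma) higher. The genes that fell in it were Gstp1 (adjusted p = 0.00432), Gstp2 (-1.54, adjusted p = 0.000114), Ugt2b1 (adjusted p = 0.0378), Ugt2b35 (adjusted p = 0.0473) and Ugt2b5 (adjusted p = 0.0215, limma). Without UN 17 wk 13 as well, the differences of Ugt2b1 and Ugt2b35 were -0.49 and -0.64 and no longer passed (adjusted p = 0.0631 and 0.0592, limma). All 8 UGT2 differences were below 0 with or without UN 17 wk 14, beside 58.3% of all probe sets with that array in.

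Between UN and NN at 17 weeks 0 of 32 genes passed, beside 0% of all probe sets. Gstp2 was the 1 gene at an unadjusted p under 0.05, where it was lower, beside 1.71% of all probe sets, with a difference of -0.57 (SE 0.14, adjusted p = 0.721, limma) and no overlap between the groups. Of the 32 differences 27 were below 0, beside 57.6% of all probe sets, with a median of -0.57. Without UN 17 wk 14 it was 22 of 32, with a median of -0.07, beside a median of 0.01 over all probe sets. Gstm3 read 7.84, 7.78, 8.24 and 7.68 in NN and 8.68, 8.96, 8.73 and 7.46 in UN, where the last value is that array. Without it every UN animal was above every NN animal, at a difference of 0.90 (SE 0.15) that did not pass the threshold (adjusted p = 0.318, limma). Summed Kupffer cell markers lay at 9.63 to 10.02 in NN and spread from 8.48 to 11.65 in UN with all arrays in. Without UN 17 wk 14 all 6 Kupffer cell markers were higher in UN (median 0.80) and all 5 hepatocyte markers lower (median -0.10). Their part in the Gstm3 difference was not tested.

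The other 16 members passed the adjusted threshold in none of these comparisons with all arrays in. They included Gsta3, Mgst1, Gstt1, Ugt2a3, Ugt2b34, Ugt2b36 and Ugt3a2, all well above the arrays' medians, and Gsto2, Gstt4, Mgst2, Ugt2b37 and Ugt8a, whose means over the 30 arrays were 3.73, 3.38, 4.14, 2.94 and 4.31, near or below them. Gsta3 ranged from 8.12, on UN 17 wk 14, to 10.87 and Ugt2b34 from 8.50, on that array, to 11.32.

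Rows that carry several symbols added the genes without a row of their own. A row shared by the alpha-class genes Gsta1 and Gsta2 and the predicted genes Gm3776 and Gm10639 read 8.88, 8.63, 8.85 and 9.46 in NN-Veh and 8.36, 6.69, 7.20 and 6.67 in NN-TU. The groups did not overlap, and the row fell by 1.72 (SE 0.27, 3.31-fold lower, adjusted p = 0.00337, limma), a call that no single array ended. It read 8.54, 8.86, 8.84 and 8.84 in UN-Veh and 8.08, 7.90, 7.50 and 7.29 in UN-TU, also without overlap, at a difference of -1.08 (adjusted p = 0.0865, limma). Which of the 4 genes gave the signal cannot be read from it. A row of Gsta1, Gsta2 and Gm3776 fell less, by 0.56 in NN (adjusted p = 0.0719) and by 0.47 in UN (adjusted p = 0.226, limma). A dim row of Gsta1, Gsta2 and Gm10639, with a mean of 2.51 in NN-Veh, differed by -0.07 in NN (adjusted p = 0.835) and -0.08 in UN (adjusted p = 0.868, limma). Neither passed, so the 3.31-fold fall is that of 1 row alone.

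A row shared by 5 UGT1 genes, among them Ugt1a1, the bilirubin-conjugating enzyme, fell between 9 and 22 weeks by 0.70 in NN (adjusted p = 0.0154) and by 0.67 in UN (adjusted p = 0.0124, limma). It read 4.78, 5.10, 5.0 and 5.16 in NN-Veh, 5.95, 5.39, 5.30 and 5.74 in NN-TU, and 4.64, 5.03, 5.15 and 4.52 in UN-TU. The treated groups did not overlap, and UN-TU was lower than NN-TU by -0.76 (adjusted p = 0.0333, limma), a call lost without NN-TU 21 or 22 or UN-TU 27, 28 or 30. The fall with age was lost in NN without NN 9 wk 1 or NN-Veh 15 and in UN without UN 9 wk 4. A second row, shared by 8 UGT1 genes that also include Ugt1a1, did not pass in these comparisons. Its differences between 9 and 22 weeks were -0.15 in NN (adjusted p = 0.6) and -0.04 in UN (adjusted p = 0.921, limma), and UN-TU minus NN-TU was 0.18 (adjusted p = 0.363, limma), opposite in sign to the first row. The shared rows of Gstz1, of Gstm5 and of Ugt2a1 with Ugt2a2 passed the adjusted threshold in no comparison.

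Other genes of these pathways were read from lists. With TUDCA in UN offspring, 16 of 17 measured NRF2 targets other than the members were below 0, beside 53.2% of all probe sets. Their median was -0.18, beside -0.01 over all probe sets. At an unadjusted p under 0.05, 4 of them were lower, beside 5.64% of all probe sets, and 0 passed the adjusted threshold. In UN-Veh against NN-Veh 15 of the 17 were above 0 (median 0.16, beside 0.02), 6 of them higher at an unadjusted p under 0.05, beside 5.89% of all probe sets, and 0 past the threshold. These comparisons share the UN-Veh arrays. With TUDCA in NN offspring 11 of the 17 were below 0, beside 62.2% of all probe sets, with a median of -0.15, beside -0.04. There too 4 were lower at an unadjusted p under 0.05, beside 11.5%, and 0 passed the threshold. In NN offspring with TUDCA, Ugdh, which makes UDP-glucuronic acid, fell by 0.53 (adjusted p = 0.0233), Cth, which makes cysteine for glutathione, by 0.64 (adjusted p = 0.0208), and Nr1i2, the gene of PXR, by 0.43 (adjusted p = 0.0294, limma). Each was the 1 gene of its list past the threshold, beside 1.06% of all probe sets that fell. The lists held 9 measured genes for UDP-glucuronic acid supply, 15 for glutathione synthesis and reduction and 17 receptors and transcription factors. No result without the low arrays NN-TU 21 and NN-TU 22 is given for these genes. In that comparison all 6 Kupffer cell markers were below 0 (median -0.37), with summed signals of 10.26 to 10.76 in NN-Veh and 9.59 to 10.22 in NN-TU, and their part in these falls was not tested.

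Between 9 and 22 weeks the UN offspring showed higher Nfe2l2, the gene of NRF2 itself (0.67, adjusted p = 0.0052, limma), and 3 of 17 other NRF2 targets rose, beside 4.7% of all probe sets, namely Pgd (0.93), Srxn1 (0.59) and Slc48a1 (0.57). In NN 0 of the 17 passed, with 4 higher and 4 lower at an unadjusted p under 0.05, beside 8.69% and 7.13% of all probe sets. Of 9 genes measured for the supply of UDP-glucuronic acid, Ugp2 (0.49) and Pgm2 (0.39) rose in UN, 2 of 9 beside the same 4.7%, and 0 passed in NN. The NN differences of Nfe2l2 and of these genes are not given here. In the comparison of the UN change with the NN change 0 of 25341 probe sets passed, so these rises are not shown to differ between the arms. Acy3, an aminoacylase that deacetylates mercapturic acids, rose by 0.50 in NN (adjusted p = 0.0181) and by 0.73 in UN (adjusted p = 0.000387, limma). Summed Kupffer cell markers lay at 9.79 to 10.16 in NN and 9.71 to 9.80 in UN at 9 weeks, and at 10.26 to 10.76 in NN-Veh and 9.92 to 10.32 in UN-Veh, with no overlap in either arm. Summed stellate cell markers lay at 10.24 to 10.41 in NN and 10.29 to 10.37 in UN at 9 weeks, and at 10.31 to 10.49 in NN-Veh and 10.47 to 10.71 in UN-Veh, overlapping in NN alone. Summed hepatocyte markers lay at 14.36 to 14.40 in NN and 14.35 to 14.39 in UN at 9 weeks, and at 14.22 to 14.38 in NN-Veh and 14.23 to 14.27 in UN-Veh, so that UN-Veh was wholly below its 9-week group. Of the 5 hepatocyte markers 1 fell in UN, Cps1, by 0.39 (adjusted p = 0.0238, limma), and 0 passed in NN. Their part in the changes between 9 and 22 weeks was not tested.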

How the data were processed

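RNA of mouse liver was hybridised to 30 Affymetrix MoGene 2.1 ST arrays, and the authors deposited 1 table of log2 signals for 41345 probe sets, made with Affymetrix Expression Console per the submitters' processing notes. The summarization and normalization settings and the genome build were not given in the sources used here, and array signals carry no read depth, so that precision rests on the number of animals. Groups came from the sample labels. Probe sets were named through the platform annotation, by which 23521 had 1 gene symbol, 1820 several and 16004 none, and the 25341 named ones were tested. Where 2 genes are near-identical copies, as in the Gstp and Ugt2b clusters, probes can read both.

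Differences were tested with limma 3.58.1 (lmFit and eBayes) in R 4.3.3 on the deposited values, with the cohort or cohorts of the groups compared in each fit, and p-values were adjusted by Benjamini-Hochberg over all tested probe sets. The test was checked on simulated data, where it recovered fewer of the changes set between the 17-week groups than in the other comparisons simulated. Called means an adjusted p under 0.05, and percentages of all probe sets called are given beside counts of members. The genes named were every member past that threshold, members past the study's thresholds (a linear fold of 2 and an unadjusted p under 0.05), Gstm3, and from each pathway list at most 4 genes per comparison. The rule, the members and the lists were chosen with earlier results of these data known. Marker levels are log2 of the summed linear signals of a list. Alternatives were quantile normalization repeated, a common median, all 30 arrays or only the groups compared in the fit, a variance trend with robust estimation, all probe sets, brighter probe sets, the methods' ANOVA and each array left out, and, added after the values had been seen, pairs of arrays left out together. Choosing a member's dimmest row changed nothing, since each has 1 row. Promoters came from RefSeq (GRCm38.p6), matched by symbol for 29 of 32 members, and were aligned with Biopython 1.88. Figures were drawn with matplotlib 3.10.9 in Python 3.11.15.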

Additional observations from a re-analysis of the deposited data

Results flagged for a closer look

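Within each group of 4 animals the highest and lowest signal of the 16 members that passed in some comparison were set against the rest of the group with Dixon's criterion at 95%. It marked 12 of 96 sets, and chance marks about 1 in 20. Of these 12, 7 were the low array UN 17 wk 14. It read 6.86 for Gsta4 (others 8.36 to 8.66), 7.95 for Gstk1 (10.46 to 10.94) and 6.17 for Gstm1 (7.77 to 8.04). It read 5.70 for Gstm2 (7.60 to 7.86) and 6.12 for Gsto1 (7.81 to 8.14). For the UGTs it read 8.13 for Ugt2b1 (11.10 to 11.51) and 7.0 for Ugt3a1 (9.64 to 9.93).

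The remaining 5 were single animals of the 22-week cohort. UN-TU 30 was low in Gstk1 at 10.56 (others 10.74 to 10.75) and in Gstp3 at 7.79 (8.25 to 8.35). UN-TU 27 was low in Gstm3 at 7.23 (7.74 to 7.82). NN-Veh 15 was high in Gstp2 at 9.55 (9.03 to 9.11), and NN-Veh 16 was low in Ugt2b5 at 9.70 (10.12 to 10.20).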

How the results depend on the processing

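The number of members called depended on the fit. In UN-Veh against NN-Veh the 1 call became 0 with all 30 arrays in 1 fit, with a variance trend and robust estimation, with all probe sets and with the methods' ANOVA, and was 0 to 1 with single arrays left out. In NN-TU against NN-Veh the 2 calls became 1 with quantile normalization, a common median, only the groups compared or all probe sets, and 0 with all 30 arrays, with ANOVA or without both NN-TU 21 and 22 (1 to 5 without single arrays). In UN-TU against UN-Veh 2 became 1 with all 30 arrays and 0 with ANOVA (2 to 3). UN-TU against NN-TU gave 0 to 2 without single arrays. In NN at 17 against 9 weeks 0 became 1 with only the groups compared. In UN at 17 against 9 weeks 1 became 2 with quantile normalization, 4 with all 30 arrays, 0 with only the groups compared, with a variance trend or with ANOVA, and 7 without both UN 17 wk 13 and 14 (1 to 7). In NN-Veh against NN at 9 weeks 11 became 0 with all 30 arrays, 7 with all probe sets and 0 with ANOVA (6 to 12), and in UN-Veh against UN at 9 weeks 13 became 2 with all 30 arrays and 7 with ANOVA (9 to 12). The fits of all 30 arrays include UN 17 wk 14, and no such fit without it is given. The shares of all probe sets called under these alternatives are not given beside these counts. The cause of these changes was not tested. For the named members no alternative reversed a direction. The row of a gene with the lowest mean is the same row, so it gave no other value. Groups of 3 and 4 animals limit every comparison, and a member below the threshold is not shown to be unchanged. No paired analysis was possible because the groups share no replicate numbers.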

Other observations

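Genes with a known sex bias in liver moved far between 9 and 22 weeks in these males. Of 18 measured male-biased genes, a list that includes Gstp1, 9 fell in NN and 11 in UN, beside 1.47% and 2.07% of all probe sets. The differences of Hsd3b5, a steroid reductase, were -4.42 in NN (adjusted p = 0.0016) and -5.75 in UN (adjusted p = 3.86e-05, limma), and those of Slco1a1, an organic anion transporter, were -2.54 and -4.20. Of 16 measured female-biased genes 4 rose in NN and 6 in UN, beside 1.96% and 4.7%, among them the cytochrome P450 genes Cyp2b9 (3.46 and 5.16) and Cyp17a1 (3.07 and 2.64), while Cyp3a44 fell (-3.05 and -2.28). Of 14 measured CAR and PXR targets, a list that also holds Cyp2b9, 2 rose and 5 fell in NN, and 4 rose and 4 fell in UN. Cyp2b10 (-2.69 and -2.32), Cyp3a11 (-2.62 and -2.02), Ces2a (-1.46 and -1.77) and Cyp2c29 (-0.53 and -0.78) fell in both, and Alas1 (-0.83) fell in NN. Cyp2b9 and Cyp2b13 (1.65 and 2.44) rose in both, and Cyp2c55 (0.77) and Abcb1a (0.58) rose in UN. Age, diet and cohort cannot be told apart in these values.

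In UN-Veh against NN-Veh the CAR target Cyp2b10 was higher by 0.87 (adjusted p = 0.00914), with Cyp2b9 (0.79, adjusted p = 0.0156) and Cyp3a44 (0.93, adjusted p = 0.0432, limma). The male-biased C8b (-1.05) and Cyp4a12b (-0.58) were lower. Thus 2 of 14 CAR and PXR targets and 2 of 16 female-biased genes were higher, beside 0.312% of all probe sets, and 2 of 18 male-biased genes lower, beside 0.107%. At an unadjusted p under 0.05, 6 CAR and PXR targets were higher and 3 lower, and 2 male-biased genes higher and 6 lower, beside 5.89% and 3.42% of all probe sets. With TUDCA in UN offspring Slco1a1 rose by 2.62 (adjusted p = 0.0104) and Cyp3a44 fell by 0.97 (adjusted p = 0.0353, limma). These were 1 of 18 male-biased genes, beside 0.138% of all probe sets that rose, and 1 of 16 female-biased genes, beside 0.268% that fell. Of 14 CAR and PXR targets 0 passed. With TUDCA in NN offspring Ces2a fell by 0.69 (adjusted p = 0.000868) and Cyp2b13 rose by 1.44 (adjusted p = 0.0256, limma). In that comparison 1 of 14 CAR and PXR targets rose and 2 fell, beside 0.292% and 1.06% of all probe sets. Of 16 female-biased genes 1 rose and 1 fell, and of 18 male-biased genes 0 rose and 1 fell. A gene can stand in several of these lists.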
